A study of Homo sapiens with 30 samples.

Results

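The 30 genes described here run cholesterol synthesis, carry sterol inside the cell or control SREBP2, the transcription factor of the pathway. They were chosen by symbol for their known place in the pathway, with no threshold on measured values. Earlier results of these data were known when the list was made, so the list is not independent of the data. All 30 were found among the 61597 genes of the deposited table, 1 entry each. They comprise 8 enzymes from acetyl-CoA to the isoprenoid diphosphates, 12 enzymes from squalene to cholesterol, 6 genes of the SREBP2 control system and 4 genes of sterol carriage and lysosomal export.

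The cells were LX2, a permanent human line with the features of activated stellate cells, which deposit scar matrix in a fibrotic liver. Cultures received oleic acid, docosahexaenoic acid (DHA, an omega-3 fatty acid) or the albumin carrier alone, and afterwards betacellulin (BTC, a growth factor that binds ErbB receptors) or medium without it. The 6 groups are written as pretreatment and treatment: Veh+Veh, Veh+BTC, OLA+Veh, OLA+BTC, DHA+Veh and DHA+BTC. The fatty acid dose was 50 µM, carried by 20 µM albumin, over 2 cycles of 48 h, given as 96 h elsewhere in the labels. BTC was given at 20 ng/ml for 72 h in medium with 1% serum, which the vehicle cultures received too. The protocol text is garbled at this step, with a passage that gives 50 µM beside BTC and another that has fatty acids in the same medium, so whether fatty acid was present during the 72 h is not clear from the labels. Each of 5 experiments supplied 1 library of every group, so there were 5 libraries per group and 30 in all. All groups are cultures of 1 line kept on plastic, and nothing in the labels says whether the experiments were separate passages. The p-values therefore measure only the spread between these cultures.

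Cholesterol is built from acetyl-CoA through mevalonate, farnesyl diphosphate, squalene and lanosterol. When sterols in the endoplasmic reticulum run low, SCAP escorts SREBP2 to the Golgi, where the proteases MBTPS1 and MBTPS2 release its active part, which enters the nucleus and switches on most genes of the route. When sterols or their oxidised forms are plentiful, INSIG1 and INSIG2 hold the SCAP and SREBP2 complex back. Cholesterol taken up with lipoproteins leaves the lysosome through NPC2 and NPC1.

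Depth ran from 1245182 to 9490142 reads per library (median 3683035), and was lowest in 3 libraries: DHA+BTC 5, DHA+Veh 5 and DHA+BTC 4, where the number is the experiment. Levels are CPM, reads of a gene per 1000000 reads of its library, from 3′ tag sequencing, in which a transcript gives reads near its end whatever its length, so levels of different genes can be set side by side. Where a gene is at 0, its level may still be as high as 3 reads would give, 2.41 CPM at the lowest depth and 0.316 CPM at the highest. Of 12 markers of activated stellate cells 11 reached 1 CPM in at least 5 libraries, with COL1A1 at a median of 801 CPM and DES (desmin) at 0.446 CPM or less. The 8 hepatocyte markers summed to 5.25 CPM at most with TTR at 0 throughout, and 0 of the 8 reached the level for testing. Of 6 leukocyte markers 5 reached it and summed to 10.4 to 83.4 CPM, with CD3E at 0 in all libraries but CD14 at 2.60 to 39.4 CPM and CD68 at 0.937 to 45.0 CPM. PTPRC was at 0 to 27.8 CPM, CSF1R at 0.203 to 28.4 CPM and LYZ at 0 to 6.18 CPM. Of 5 endothelial markers 2 reached it, PECAM1 at 0.296 to 42.3 CPM and TEK at 3.02 CPM or less, while CDH5 stayed at 0.856 CPM or less. The epithelial keratins KRT8 and KRT18 were present at medians of 72.6 and 133 CPM, with EPCAM at 2.47 CPM or less. The other epithelial markers were CDH1 at 5.35 to 149 CPM, KRT7 at 4.02 to 22.5 CPM and KRT19 at 0 to 11.1 CPM.

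Cholesterol synthesis genes were lower after DHA. The summed level of the 20 enzymes was 4082 ± 824 CPM (SD, n = 10) without fatty acid, 3636 ± 662 CPM after oleic acid and 2478 ± 894 CPM after DHA. ACAT2, HMGCS1 and FDPS weighed most in this sum, with means of 1017, 713 and 566 CPM without fatty acid. After DHA their means were 548, 414 and 408 CPM. In Veh+Veh the sum was 4933, 5116, 3783, 3708 and 2799.7 CPM in experiments 1 to 5, and in DHA+Veh it was 3169, 3537, 1968, 2683 and 1058 CPM. Every DHA library lay below the vehicle library of its own experiment, at 37.8% to 72.4% of it without BTC and at 39.2% to 76.6% of it with BTC. Experiment 5 was the lowest in every group, and vehicle and DHA libraries of different experiments overlapped.

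**Figure D1:**
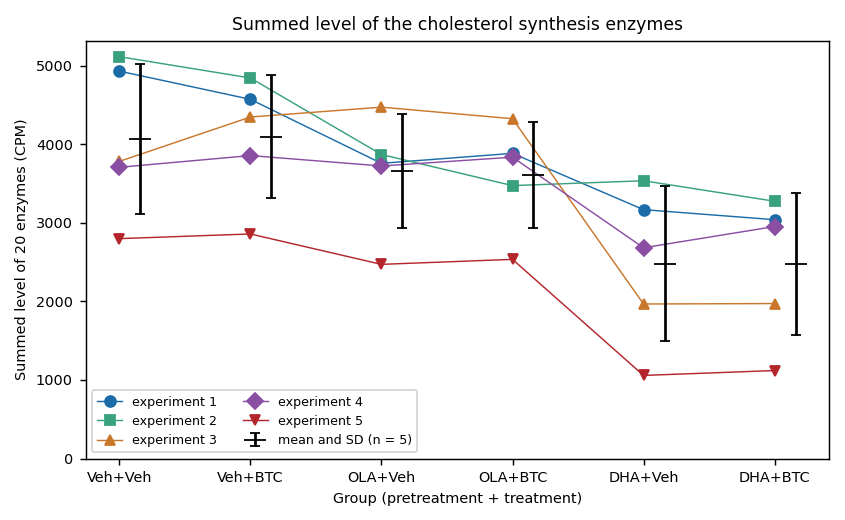
Summed level in CPM of the 20 cholesterol synthesis enzymes in each of the 30 libraries, by group, with lines joining the libraries of an experiment and black bars giving the mean and SD of 5 libraries. Group means are 4068 CPM in Veh+Veh and 4097 CPM in Veh+BTC, and 2483 CPM in DHA+Veh and 2473 CPM in DHA+BTC.

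Gene by gene, 29 of the 30 members reached the level for testing, at least 1 CPM in at least 5 libraries. The DHA difference was averaged over cultures with and without BTC and tested with limma on log2(CPM + 1), with the experiment as a block and Benjamini-Hochberg adjustment over all 15137 genes tested. At an adjusted p under 0.05, 15 of the 29 members were called, 14 lower and 1 higher. Of all genes tested, 10.7% were called in this comparison, 8.38% lower and 2.33% higher. A further 7 members had an unadjusted p under 0.05 without passing adjustment. Without the experiment in the fit 2 members were called, ACAT2 and MVK. With the libraries of an experiment averaged over BTC, 11 of the 15 stayed called, and MSMO1, INSIG2, TM7SF2 and FDPS did not. The median difference of the members was -0.54 on the log2 scale against -0.13 for all genes, and 25 of the 29 lay below 0. The median of all genes itself depends on the scaling and moved to -0.05 with median-of-ratios factors and to -0.00183 with quantile normalization, where the members' medians were -0.44 and -0.43. Calls over all genes were 352 higher and 1269 lower as reported, 530 and 754 with median-of-ratios factors, 520 and 661 with quantile normalization, 454 and 496 with edgeR and 636 and 734 with DESeq2. Calls among the members were 3 higher and 13 lower with median-of-ratios factors and with DESeq2, 2 and 14 with quantile normalization, and 2 and 10 with edgeR.

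Within single experiments, the median difference of the 19 tested enzymes between DHA and vehicle was -0.62, -0.46, -0.78, -0.52 and -1.16 in experiments 1 to 5. The medians of all genes in the same experiments were -0.03, -0.04, -0.11, -0.27 and -0.26. Experiment 5, which holds the DHA libraries with the fewest reads, gave the lowest enzyme median. Without the 3 shallowest libraries 12 of the members stayed called, all lower. In RNA from whole cultures, fewer cells of a kind and less RNA per cell cannot be told apart.

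**Figure D2:**
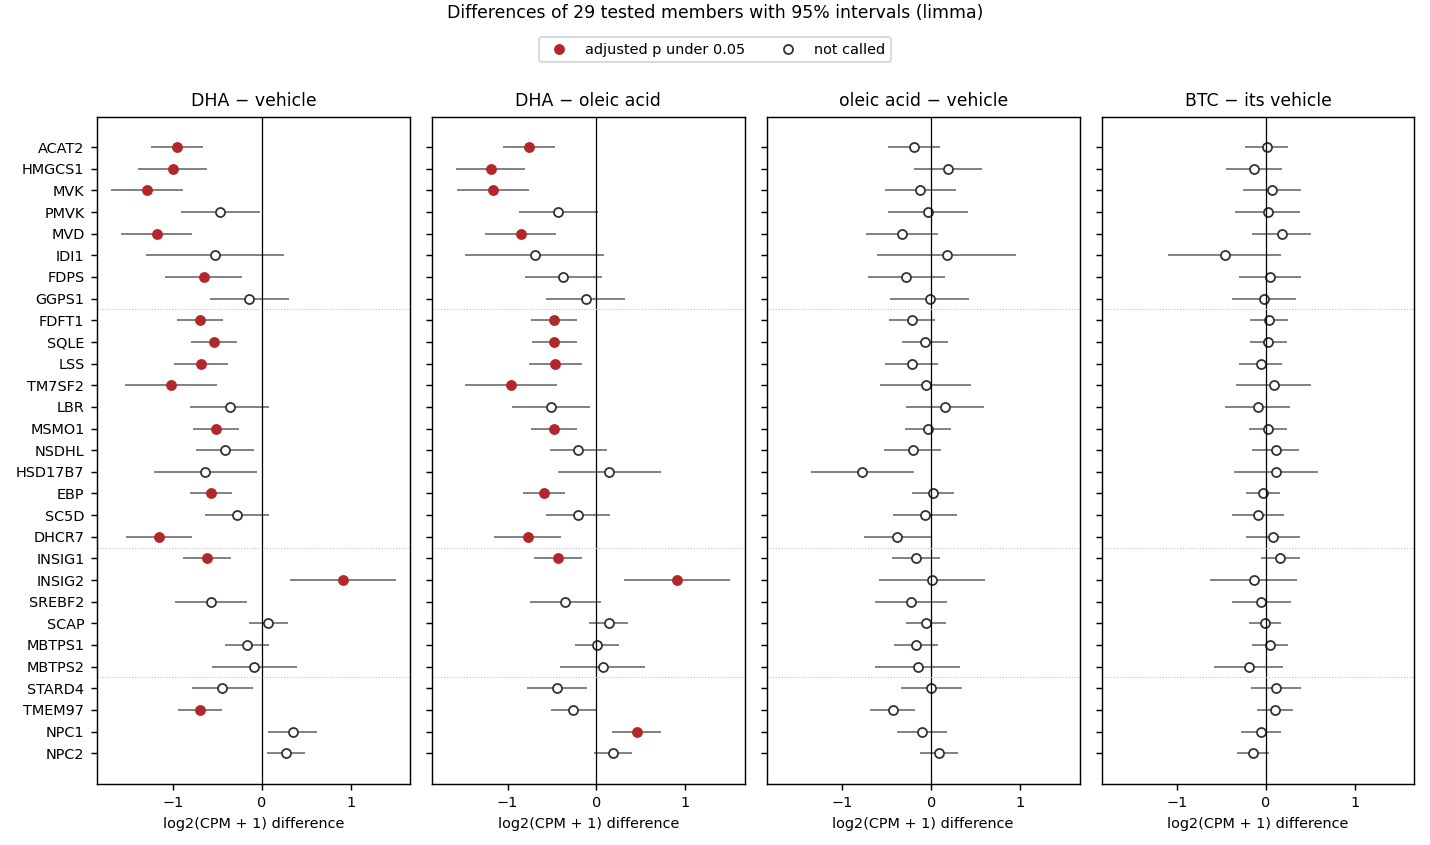
Differences on the log2(CPM + 1) scale with 95% intervals from limma for the 29 tested members in pathway order, in 4 comparisons, with red points at an adjusted p under 0.05 and dotted lines between the roles. In the panel of DHA against vehicle the enzymes lie left of 0, from -0.14 for GGPS1 to -1.29 for MVK, while no member is called for oleic acid or BTC.

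Promoter letters were read for context, because SREBP2 is known to act beside the CCAAT-binding factor NF-Y. The RefSeq table of promoters (build GRCh38.p14) gave 27 of the 30 members, and the 250 bases before each start were searched on both strands. The NF-Y letters CCAAT were found in 19 of the 27 members (70.4%), against 10102 of 27305 genes (37%). Among the members called for DHA, 11 of 12 with a promoter had them. INSIG2, the single riser, whose call was unstable as described below, had none. Of the other members 8 of 15 had them. Those without were the enzymes PMVK, CYP51A1 and LBR, the control genes SCAP, MBTPS1 and MBTPS2, and NPC1. CYP51A1 was not tested, so the called and other members differ in role as well. The SREBP letters TCACNCCAC occurred in 310 of 35116 promoters (0.883%) and in 1 member, SREBF2 itself, and the absence of these exact letters elsewhere says only that they are not in that window. The 2 motifs do not overlap in SREBF2. The sequences printed are the SREBF2 stretch and the parts outside coding-gene exons of the called members' promoters with 3 or more CCAAT matches, where at least 2 remained. Only 2.93% of all promoters had 3 or more. Of the called members MVK, MVD, FDPS, MSMO1, EBP and TMEM97 had 3 to 5. Of the members not called NSDHL had 5 and IDI1 had 3. Letters in capitals mark TCACNCCAC in SREBF2 and CCAAT or its complement ATTGG in all 4, written 5′ to 3′ on the gene's strand.
MVD, chr16:88663164-88663258, minus strand: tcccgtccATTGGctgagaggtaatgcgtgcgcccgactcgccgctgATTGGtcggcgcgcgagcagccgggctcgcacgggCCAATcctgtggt
MSMO1, chr4:165327476-165327605, plus strand: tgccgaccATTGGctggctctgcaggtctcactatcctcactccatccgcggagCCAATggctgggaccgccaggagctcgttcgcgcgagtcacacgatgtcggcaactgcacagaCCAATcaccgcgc
TMEM97, chr17:28318994-28319066, plus strand: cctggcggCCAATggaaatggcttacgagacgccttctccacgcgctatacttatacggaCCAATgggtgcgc
SREBF2, chr22:41832964-41833011, plus strand: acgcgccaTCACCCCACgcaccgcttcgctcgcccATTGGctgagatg
These stretches end 73, 64, 134 and 94 bases before the respective start. A match is a description of letters and no measure of binding.

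In the mevalonate segment 5 of 8 enzymes fell with DHA, with a median difference of -0.80 over the 8. ACAT2 (ENSG00000120437.9), the cytosolic thiolase that condenses acetyl-CoA, was the most abundant member, with 817 ± 289 CPM over all 30 libraries. Without fatty acid its level was 1223, 1279, 932, 1014 and 786 CPM in experiments 1 to 5, and with BTC 1469, 1020.3, 712, 994 and 743 CPM. After DHA it was 789, 739, 486, 464 and 247 CPM, and after DHA and BTC 727, 702, 494, 572 and 259 CPM. OLA+Veh held ACAT2 at 808, 859, 1118, 868 and 622 CPM and OLA+BTC at 877, 724, 1193, 1132 and 674 CPM. Each DHA library was below its vehicle partner, 10 of 10 pairs, although with and without BTC the DHA library of experiment 1 was above the lowest vehicle library. The difference was -0.95 ± 0.14 (SE) on the log2 scale, a 1.94-fold fall, with an adjusted p of 4.96e-05 from limma. The last exonic bases of ACAT2 overlap TCP1 on the opposite strand in GENCODE 29 over 397 positions, TCP1 is listed at 38.8 to 174 CPM, and whether counting used strand is not given in the sources used here.

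HMGCS1 makes HMG-CoA and is a classical SREBP2 target. It stood at 1449, 1634, 314, 295 and 363 CPM in Veh+Veh and at 626, 1675, 251, 349.7 and 175 CPM in Veh+BTC. DHA+Veh gave 904, 828, 141, 95.3 and 80.6 CPM and DHA+BTC 922, 786, 129, 141 and 113 CPM. OLA+Veh held HMGCS1 at 1019, 1262, 549, 298 and 402 CPM and OLA+BTC at 1100.3, 1026, 444, 415 and 271 CPM. Experiments 1 and 2 were higher than experiments 3 to 5 in all 6 groups, so the groups overlapped as a whole, while 9 of 10 pairs were lower with DHA. The exception was experiment 1 with BTC. Within experiments HMGCS1 fell 2.00-fold, by a log2 difference of -1.001 ± 0.19 (limma adjusted p = 0.000664).

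Mevalonate kinase, MVK, showed the largest fall of the 29 members. Vehicle cultures held 143, 205, 272, 299.6 and 202 CPM without BTC and 302, 190.4, 275, 294 and 209 CPM with it. DHA cultures held 79.5, 128, 114, 123 and 54.6 CPM and 64.2, 161, 117, 172 and 35.3 CPM respectively. OLA+Veh held MVK at 139, 144, 444, 343 and 140.0 CPM and OLA+BTC at 169, 121, 350.4, 259.8 and 247 CPM. Without BTC every DHA library was below every vehicle library, and with BTC likewise. The log2 difference was -1.29 ± 0.20, a 2.44-fold fall (limma adjusted p = 5.75e-05), and all 10 pairs were lower.

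MVD, which decarboxylates mevalonate diphosphate to isopentenyl diphosphate and whose promoter stretch is printed above, fell in every pair. In Veh+Veh it stood at 75.7, 85.7, 285, 122 and 55.9 CPM and in Veh+BTC at 131, 149, 236, 119 and 103 CPM. After DHA the values were 48.0, 54.4, 64.2, 100.1 and 20.8 CPM without BTC and 38.3, 91.4, 64.0, 99.0 and 22.5 CPM with it. OLA+Veh held MVD at 69.4, 56.3, 239, 152 and 59.7 CPM and OLA+BTC at 74.2, 73.8, 193, 94.96 and 84.5 CPM. Experiment 3 was the highest of the vehicle libraries and experiment 5 the lowest after DHA, and with BTC every DHA library was below every vehicle library. MVD fell by 1.18 ± 0.20 on the log2 scale, or 2.27-fold (limma adjusted p = 0.00018).

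FDPS, the farnesyl diphosphate synthase that bisphosphonates inhibit, was called narrowly. Its vehicle values were 503, 481, 518, 569.8 and 310.3 CPM and, with BTC, 569.5, 359, 1227, 580.3 and 546 CPM. Its DHA values were 304, 573, 285, 781 and 116 CPM and 330.0, 455, 329, 797 and 106 CPM. OLA+Veh held FDPS at 478, 384, 627, 629 and 321 CPM and OLA+BTC at 430.3, 300.02, 574, 539 and 274 CPM. The groups overlapped widely, since the DHA libraries of experiments 2 and 4 were above their partners, and 6 of 10 pairs were lower. The difference of -0.65 ± 0.21 had a limma adjusted p of 0.0436, and the call was lost under 23 of 37 alternatives. Leaving out experiment 1 (adjusted p = 0.113), 3 (0.246) or 5 (0.384, with a difference of -0.35) was enough. So was leaving out any single library among Veh+Veh 1, 2, 3 and 5, Veh+BTC 3 and 5, DHA+Veh 1, 3 and 5, and DHA+BTC 1, 3 and 5 (adjusted p from 0.0512 to 0.111).

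The remaining 3 enzymes of the segment were not called. PMVK, phosphomevalonate kinase, was at 3.90 to 126 CPM over the libraries and differed by -0.46 (limma adjusted p = 0.177). IDI1, the isopentenyl diphosphate isomerase, ranged from 0 to 117 CPM over the libraries and differed by -0.53, with a 95% interval from -1.30 to 0.25 (limma adjusted p = 0.418). GGPS1, which makes the geranylgeranyl diphosphate used to anchor small GTPases, was at 1.85 to 19.8 CPM and differed by -0.14 (limma adjusted p = 0.757). Of 12 further genes of the isoprenoid branch, prenyltransferases and enzymes of ubiquinone and dolichol, none was called for DHA, and their median difference was 0.01.

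**Figure D3:**
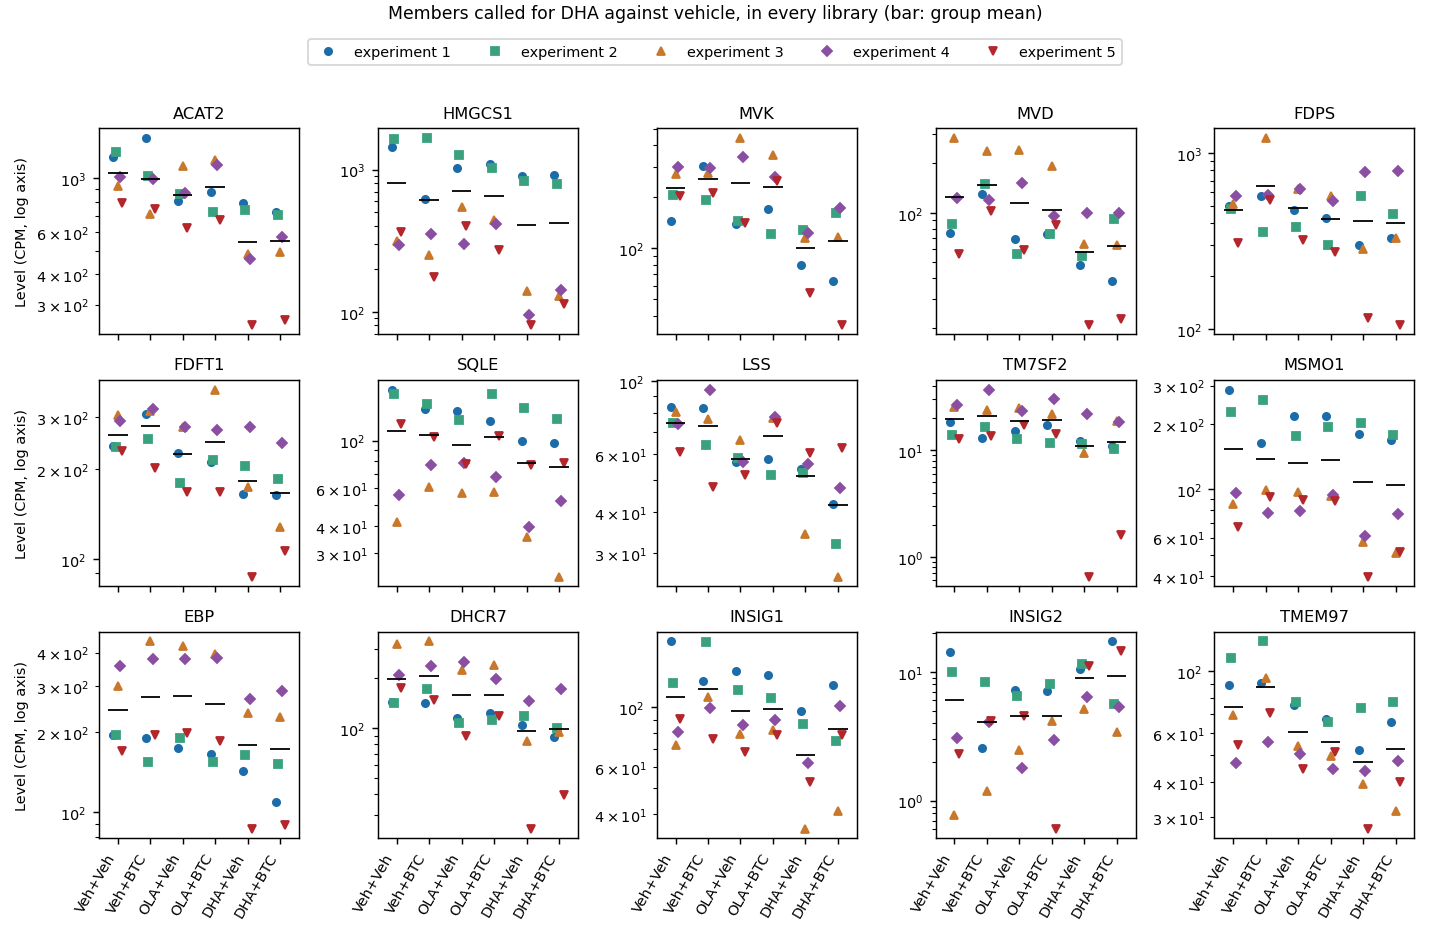
Level in CPM, on log axes, of the 15 members called for DHA against vehicle in each of the 30 libraries by group, with symbols for the 5 experiments and bars for the group means. The DHA+Veh and DHA+BTC points of MVK lie between 35.3 and 172 CPM, while those of INSIG2 reach 17.2 CPM.

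In the segment from squalene to cholesterol 7 of the 11 tested enzymes fell, and all 11 differences were below 0, with a median of -0.57. FDFT1, squalene synthase, commits farnesyl diphosphate to sterols. Its levels were 239, 237, 306, 291 and 229.9 CPM in Veh+Veh and 307, 253, 314, 319 and 203 CPM in Veh+BTC. After DHA they were 165, 206, 175, 278 and 87.1 CPM and, with BTC, 165, 186, 128, 245 and 106 CPM. OLA+Veh held FDFT1 at 227, 180.0, 278, 277 and 167 CPM and OLA+BTC at 212, 214, 371, 272 and 168 CPM. All 10 pairs were lower, experiment 4 by the least without BTC, and FDFT1 fell by 0.69 ± 0.13 on the log2 scale (limma adjusted p = 0.000436).

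SQLE, the squalene epoxidase targeted by terbinafine in fungi, was 173, 166, 41.6, 56.0 and 119 CPM in Veh+Veh and 140.0, 148, 60.6, 76.9 and 104 CPM in Veh+BTC. DHA+Veh held 99.5, 142, 35.7, 39.7 and 77.3 CPM and DHA+BTC 97.1, 126, 23.2, 52.2 and 78.7 CPM. OLA+Veh held SQLE at 137, 125, 56.9, 79.0 and 78.1 CPM and OLA+BTC at 123, 165, 57.9, 67.7 and 105 CPM. Experiments 1 and 2 were the highest and 3 and 4 the lowest in most groups, so that groups overlapped, but all 10 pairs were lower, for a difference of -0.54 ± 0.13 (limma adjusted p = 0.00533). With edgeR on the recovered reads its adjusted p was 0.0535.

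LSS folds epoxidised squalene into lanosterol, the first sterol. It held 83.2, 74.7, 80.6, 74.2 and 61.0 CPM in Veh+Veh and 82.7, 64.0, 76.8, 94.3 and 47.5 CPM in Veh+BTC. The DHA groups held 54.0, 52.6, 34.2, 55.9 and 60.4 CPM and 42.1, 31.8, 25.4, 47.2 and 62.6 CPM. OLA+Veh held LSS at 56.8, 58.3, 66.0, 56.7 and 51.9 CPM and OLA+BTC at 57.9, 51.9, 77.2, 77.8 and 74.6 CPM. Without BTC all DHA libraries lay below all vehicle libraries, and 9 of 10 pairs were lower, the exception being experiment 5 with BTC. The separation without BTC was narrow, with DHA+Veh 5 at 60.4 CPM and Veh+Veh 5 at 61.0 CPM. That gap is smaller than the 1.95 CPM that 3 reads give in DHA+Veh 5. The fall was 1.61-fold, -0.68 ± 0.15 on the log2 scale (limma adjusted p = 0.00255).

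CYP51A1, the lanosterol demethylase, was the 1 member below the level for testing and was listed at 0 to 2.14 CPM. In GENCODE 29 another gene entry on the same strand, AC000120.2, shares 492 of its last 500 exonic positions and is itself listed at 0. How reads that fall in both entries were counted is not given in the sources used here. Its level was therefore not read as absence. Pseudogene copies of the members were listed at 1.79 CPM or less.

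TM7SF2 and LBR reduce the same double bond in the sterol ring, and LBR is also a receptor of the nuclear lamina. TM7SF2 was 18.5, 14.0, 25.7, 26.5 and 12.8 CPM in Veh+Veh and 13.1, 16.4, 23.9, 37.1 and 13.7 CPM in Veh+BTC. After DHA it was 12.1, 11.5, 9.38, 21.7 and 0.650 CPM and 10.9, 10.2, 18.9, 18.3 and 1.61 CPM. OLA+Veh held TM7SF2 at 15.3, 12.7, 24.8, 23.3 and 17.4 CPM and OLA+BTC at 17.4, 11.7, 22.1, 30.0 and 14.2 CPM. All 10 pairs were lower, and the DHA libraries of experiment 5 were lowest with 1 and 2 reads. TM7SF2 fell by 1.02 ± 0.25 (limma adjusted p = 0.00779), which shrank to -0.58 (adjusted p = 0.0359) without experiment 5 and to -0.51 (adjusted p = 0.0812) without the 3 shallowest libraries. LBR, at 3.97 to 75.7 CPM over the libraries, differed by -0.36 ± 0.22 and was not called (limma adjusted p = 0.315).

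MSMO1, the methylsterol monooxygenase, held 288, 226, 85.6, 96.6 and 67.3 CPM in Veh+Veh and 164, 257, 99.0, 78.1 and 92.1 CPM in Veh+BTC. DHA+Veh held 179, 201, 57.5, 60.9 and 39.6 CPM and DHA+BTC 168, 178, 51.0, 77.1 and 51.4 CPM. OLA+Veh held MSMO1 at 217, 176, 96.8, 79.2 and 89.3 CPM and OLA+BTC at 217, 192, 93.3, 94.1 and 88.4 CPM. Experiments 1 and 2 were higher than the others in every group, the groups overlapped, and 9 of 10 pairs were lower. MSMO1 fell by 0.51 ± 0.13 (limma adjusted p = 0.00788), a call lost without experiment 3 (adjusted p = 0.0672). Its partners in removing the methyl groups of lanosterol were not called: NSDHL, at 93.2 to 334 CPM, differed by -0.41 (limma adjusted p = 0.0877) and HSD17B7, at 0 to 7.72 CPM, by -0.63 (limma adjusted p = 0.151).

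EBP shifts a double bond of the sterol ring and is the target of several oestrogen receptor ligands. Its levels were 195, 196, 299, 357 and 170.0 CPM in Veh+Veh and 191, 155, 442, 379.7 and 194 CPM in Veh+BTC. After DHA they were 143, 164, 236, 266 and 86.4 CPM and 109, 152, 229, 287 and 89.1 CPM. OLA+Veh held EBP at 174, 190.0, 425, 378 and 199 CPM and OLA+BTC at 166, 154, 395, 381 and 186 CPM. Experiments 3 and 4 were the highest in all groups and all 10 pairs were lower. EBP fell by 0.57 ± 0.11 on the log2 scale (limma adjusted p = 0.00131).

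SC5D, the sterol desaturase, was at 5.56 to 49.9 CPM over the libraries, differed by -0.28 ± 0.18 and was not called (limma adjusted p = 0.343). DHCR7 makes cholesterol from its immediate precursor dehydrocholesterol. It was 144, 142, 321, 209 and 174 CPM in Veh+Veh and 143, 174, 336, 238 and 147 CPM in Veh+BTC. DHA+Veh held 105, 119, 84.2, 146 and 24.7 CPM and DHA+BTC 88.3, 99.8, 94.6, 173 and 39.4 CPM. OLA+Veh held DHCR7 at 116, 107, 224, 252 and 90.0 CPM and OLA+BTC at 123, 112, 243, 198 and 118 CPM. All 10 pairs were lower, and only the DHA libraries of experiment 4 exceeded the lowest vehicle library of their treatment. The fall was 2.23-fold, -1.15 ± 0.18 on the log2 scale (limma adjusted p = 9.18e-05).

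Of the 6 genes of SREBP2 control 1 fell, 1 rose and 4 were not called, with a median of -0.12. INSIG1, itself a known SREBP2 target, held 176, 123, 72.4, 81.2 and 90.7 CPM in Veh+Veh and 125, 175, 109, 99.7 and 76.0 CPM in Veh+BTC. After DHA it held 96.5, 86.4, 35.4, 61.9 and 52.6 CPM and 121, 75.0, 41.1, 101 and 78.7 CPM. OLA+Veh held INSIG1 at 136, 115, 79.4, 86.2 and 68.1 CPM and OLA+BTC at 132, 108, 82.6, 89.5 and 78.8 CPM. Without BTC all 5 pairs were lower, with BTC 3 of 5, and INSIG1 fell by 0.61 ± 0.13 (limma adjusted p = 0.00272).

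INSIG2, the isoform whose gene is not under the same sterol feedback, was rare. Vehicle cultures held 14.1, 9.89, 0.778, 3.04 and 2.28 CPM without BTC and 2.57, 8.29, 1.18, 4.05 and 4.15 CPM with it. DHA cultures held 10.4, 11.5, 5.15, 6.35 and 11.0 CPM and 17.2, 5.66, 3.40, 5.35 and 14.5 CPM. OLA+Veh held INSIG2 at 7.23, 6.48, 2.48, 1.80 and 4.52 CPM and OLA+BTC at 7.05, 8.03, 4.12, 2.93 and 0.608 CPM. The groups overlapped, and 8 of 10 pairs were higher with DHA. INSIG2 rose by 0.91 ± 0.29 (limma adjusted p = 0.0402), opposite to INSIG1. That call was lost under 21 of 37 alternatives, among them leaving out any of experiments 1, 3, 4 or 5 (adjusted p from 0.0705 to 0.148) or the 3 shallowest libraries (difference 0.62, adjusted p = 0.335). It was also lost without any single library among Veh+Veh 3, 4 and 5, Veh+BTC 1 and 3, DHA+Veh 3, 4 and 5, and DHA+BTC 1, 4 and 5 (adjusted p from 0.0553 to 0.097).

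SREBF2, which encodes SREBP2, had 333 ± 92.4 CPM (SD, n = 10) without fatty acid and 243 ± 96.1 CPM after DHA. Its lowest libraries were DHA+BTC 5 with 53.8 CPM and DHA+Veh 5 with 123 CPM, and the others lay between 175 and 538 CPM. The difference of -0.57 ± 0.20 missed the threshold (limma adjusted p = 0.0586), and it was -0.45 without BTC and -0.70 with it. Without experiment 5 it was -0.19 (adjusted p = 0.418) and without the 3 shallowest libraries -0.22 (adjusted p = 0.416). It crossed the threshold when any of these was left out: Veh+Veh 1, Veh+BTC 2 and 3, and DHA+BTC 1, 2 and 3 (adjusted p from 0.0393 to 0.0466). SCAP, the escort, was the most abundant of the 6 with 462 ± 155 CPM over all libraries and differed by 0.08, with a 95% interval from -0.14 to 0.30 (limma adjusted p = 0.722). The proteases MBTPS1, at 26.1 to 112 CPM, and MBTPS2, at 2.48 to 23.3 CPM, differed by -0.17 and -0.08 (limma adjusted p = 0.422 and 0.868).

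Of the 4 sterol carriers and exporters only TMEM97 was called. TMEM97, a membrane protein that binds NPC1 and is known as the sigma-2 receptor, held 88.7, 111, 69.3, 46.9 and 54.2 CPM in Veh+Veh and 90.6, 128, 94.3, 55.5 and 70.8 CPM in Veh+BTC. OLA+Veh held 75.3, 77.2, 53.9, 50.5 and 44.5 CPM and OLA+BTC 67.2, 65.8, 49.4, 44.7 and 51.1 CPM. DHA+Veh held 52.3, 73.9, 39.4, 43.7 and 27.3 CPM and DHA+BTC 65.6, 77.1, 31.5, 47.7 and 40.2 CPM. All 10 DHA libraries were below their vehicle partners and so were 9 of 10 oleic acid libraries, while the groups overlapped. The difference from vehicle was -0.69 ± 0.12 for DHA (limma adjusted p = 0.000319). Its 3′ end overlaps IFT20 on the opposite strand over 361 positions, and IFT20 was at 8.74 to 36.9 CPM.

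NPC1 and NPC2 hand cholesterol out of the lysosome, and both lay on the other side of 0 from the enzymes. NPC1 held 93.1, 47.8, 23.0, 53.4 and 107 CPM in Veh+Veh and 57.6, 55.7, 30.1, 59.3 and 73.3 CPM in Veh+BTC. OLA+Veh held 73.7, 45.9, 32.4, 45.9 and 65.8 CPM and OLA+BTC 84.5, 46.0, 24.9, 52.3 and 70.3 CPM. DHA+Veh held 84.4, 48.8, 50.9, 59.6 and 159.9 CPM and DHA+BTC 81.2, 55.5, 43.3, 59.7 and 124 CPM. The highest values came from experiment 5 after DHA, and the groups overlapped elsewhere. Against vehicle NPC1 differed by 0.35 ± 0.14 (limma adjusted p = 0.0949) and NPC2, at 219 to 636 CPM over the libraries, by 0.28 ± 0.10 (limma adjusted p = 0.086), neither called. With median-of-ratios factors both passed, with adjusted p of 0.0329 for NPC1 and 0.0165 for NPC2. Both also passed with edgeR and with DESeq2, and NPC1 with quantile normalization. Each passed under 4 of 37 alternatives. STARD4, a soluble sterol carrier at 11.7 to 69.1 CPM, differed by -0.44 ± 0.17 and was not called (limma adjusted p = 0.0843).

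**Figure D4:**
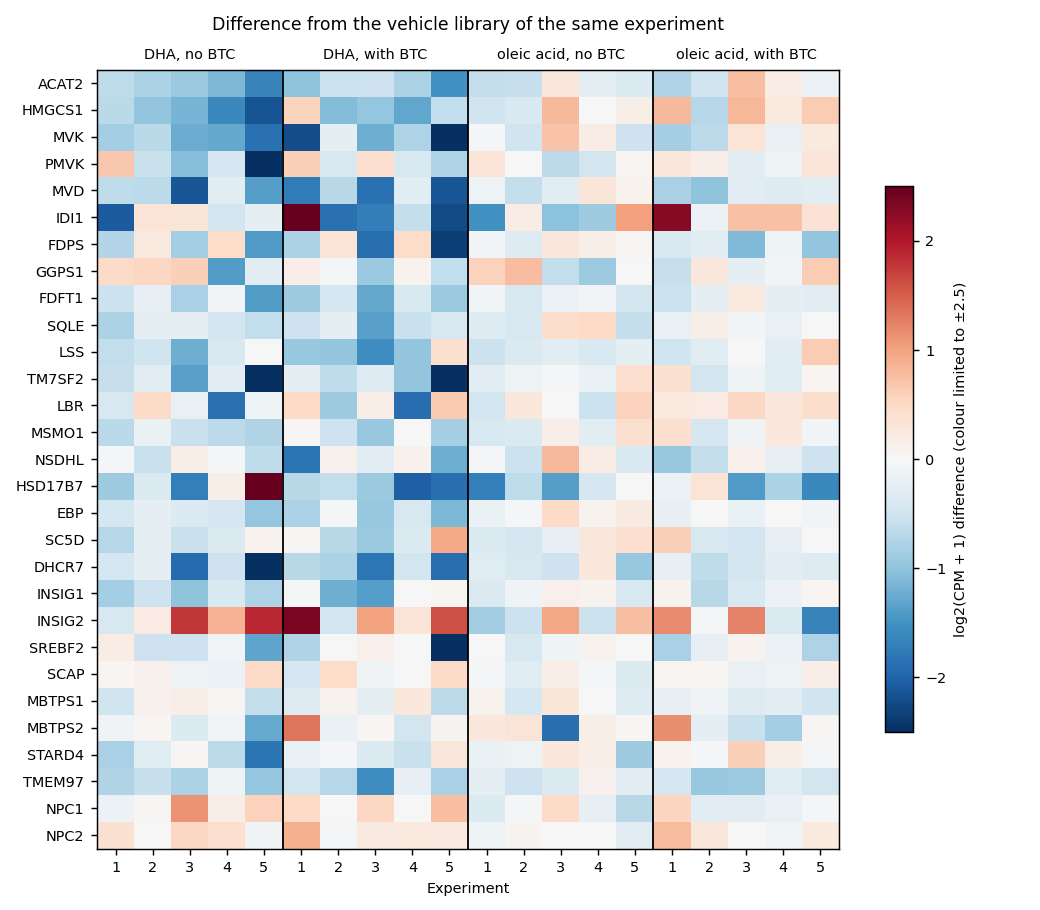
Difference on the log2(CPM + 1) scale between each fatty acid library and the vehicle library of its own experiment, for the 29 tested members in pathway order, without and with BTC, with colour limited to ±2.5 (7 values lie beyond). The enzymes are mostly blue in the DHA columns, while INSIG2, NPC1 and NPC2 are mostly red. ACAT2, MVK, MVD, FDFT1, SQLE, TM7SF2, EBP and DHCR7 are lower in all 10 DHA columns.

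DHA was also set against oleic acid, which asks whether the difference is one between the fatty acids. This comparison uses the same DHA libraries as the one against vehicle and is no independent repeat of it. Of the 29 members 14 were called, 12 lower and 2 higher, where 11.4% of all genes tested were called, 8.96% lower and 2.4% higher. The members' median was -0.44 against -0.17 for all genes. In experiments 1 to 5 the median of the 19 tested enzymes was -0.32, -0.12, -0.82, -0.39 and -1.12. Medians of all genes there were -0.09, -0.09, -0.03, -0.25 and -0.35, so in experiment 2 the enzymes lay close to all genes. The sum of the 20 enzymes was 42.8% to 91.4% of its oleic acid partner without BTC and 44.2% to 94.3% with BTC. Both upper values came from experiment 2. HMGCS1 differed by -1.19 ± 0.19 (limma adjusted p = 0.000107), where its difference from vehicle was -1.001. MVK differed by -1.16 ± 0.20 from oleic acid (limma adjusted p = 0.000222), ACAT2 by -0.76 and DHCR7 by -0.77. FDFT1, SQLE, LSS, TM7SF2, MSMO1, EBP, MVD and INSIG1 were also lower than with oleic acid, from -0.44 for INSIG1 to -0.96 for TM7SF2. All 10 pairs were lower for ACAT2, HMGCS1, TM7SF2 and EBP, 9 of 10 for MVK, SQLE, LSS, MSMO1, DHCR7 and INSIG1, and 8 of 10 for MVD and FDFT1.

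FDPS and TMEM97 were called against vehicle and not against oleic acid, where FDPS differed by -0.37 (limma adjusted p = 0.261) and TMEM97 by -0.26 (limma adjusted p = 0.167). INSIG2 was higher than with oleic acid by 0.90 ± 0.29 (limma adjusted p = 0.041), a call lost under 20 of 37 alternatives. Single libraries that ended it were OLA+Veh 1 and 2, OLA+BTC 1, DHA+BTC 1, DHA+Veh 3 and each of the 4 from experiments 4 and 5 (adjusted p from 0.0515 to 0.105). LSS, with -0.46 against oleic acid, lost its call under 21 of 37, also without OLA+Veh 2, DHA+BTC 2, any library of experiment 3, OLA+BTC 4 or 5, DHA+Veh 4 or DHA+BTC 4 (adjusted p from 0.0521 to 0.0863). INSIG1 lost it under 15, also without DHA+BTC 2 or any library of experiment 3 (adjusted p from 0.0566 to 0.0685). NPC1 rose against oleic acid by 0.45 ± 0.14 (limma adjusted p = 0.0276), with 9 of 10 pairs higher, and lost the call without experiment 3 (adjusted p = 0.101), 4 (0.084) or 5 (0.228), without OLA+BTC 3 or DHA+Veh 3, and without any of its 4 libraries of experiment 5 (adjusted p from 0.0515 to 0.0688). The count of 14 rested more on single experiments than the count against vehicle: it was 6 without experiment 3, 8 without experiment 4 and 7 without experiment 5. ACAT2, HMGCS1, MVK and EBP remained called in each of these 3 cases. The calls of MSMO1, LSS, SQLE, FDFT1, MVD, DHCR7, INSIG1, INSIG2 and TM7SF2 were each lost in at least 1 of them.

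Oleic acid against vehicle gave 0 called members with limma, edgeR and DESeq2, and 0% of all genes were called with limma. At an unadjusted p under 0.05 there were 3 members, all lower: TMEM97 with -0.43 ± 0.12, HSD17B7 with -0.78 ± 0.28 and DHCR7 with -0.38 ± 0.18. The members' median was -0.10 against 0.02 for all genes. The sum of the 20 enzymes was 75.7% to 118% of vehicle without BTC and 71.7% to 99.5% of it with BTC. In experiments 1 and 2 it was 76.2% and 75.7% without BTC, and 85.0% and 71.7% with BTC. Enzyme medians in experiments 1 to 5 were -0.24, -0.32, -0.08, -0.01 and 0.08. Those of all genes were 0.08, 0.04, -0.07, -0.02 and 0.06. For MVK the 95% interval of the oleic acid difference ran from -0.53 to 0.28 and for HMGCS1 from -0.20 to 0.57, so the data allow changes within those bounds. Between DHA and oleic acid, which differ in chain length and in the number of double bonds, 14 of the 29 members differed by test and 15 did not pass. Oleic acid and vehicle were not shown to act alike.

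No member was called for BTC against its vehicle, averaged over pretreatments. Limma, edgeR and DESeq2 each called 0 of 29, no member had an unadjusted limma p under 0.05, and 0% of all genes were called with limma. The largest difference was that of IDI1, -0.46, with a 95% interval from -1.10 to 0.17. For ACAT2 the interval ran from -0.23 to 0.25, for INSIG1 from -0.06 to 0.38 and for MVK from -0.26 to 0.40. The summed enzymes after BTC were 92.7% to 115% of their partner without fatty acid, 89.8% to 103% after oleic acid and 92.6% to 110.1% after DHA.

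Split by BTC, the DHA difference called 5 members without BTC (ACAT2, HMGCS1, MVK, DHCR7 and INSIG1, all lower), where 1.54% of all genes were called, 0.945% lower and 0.595% higher. With BTC it called 8 (ACAT2, MVK, MVD, FDFT1, LSS, EBP, DHCR7 and TMEM97, all lower), where 3.55% were called, 2.46% lower and 1.08% higher. HMGCS1 differed by -1.32 without BTC and by -0.68 with it, and MVK by -1.18 and -1.40. The difference between the cases was itself tested: the interaction of DHA with BTC called 0 of 29 members with limma, edgeR and DESeq2, 1 member (HSD17B7) had an unadjusted p under 0.05, and 0% of all genes were called. The interaction of HMGCS1 was 0.64, with a 95% interval from -0.13 to 1.41. The interaction of oleic acid with BTC called 0 members with all 3 tools, none at an unadjusted p under 0.05, and 0% of all genes. The split counts rest on few libraries and on the spread shared by all 6 groups: with only the compared groups in the fit 0 of the 8 calls with BTC were kept, and 4 of the 5 without BTC. Without BTC the count ranged from 0 without experiment 5 to 5, and it was 1 without experiment 3, 4 or DHA+Veh 5. It was 2 without Veh+Veh 3, DHA+Veh 3 or Veh+Veh 5, and 3 without Veh+Veh 4. With BTC it ranged from 2 without experiment 3 to 10, and was 3 without experiment 5, 4 without DHA+BTC 3, and 5 without experiment 4, Veh+BTC 5 or DHA+BTC 5.

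Other genes around the pathway were counted for the same averaged DHA comparison, with log2 differences given in parentheses. Of 16 genes of sterol-regulated degradation and SREBP trafficking none was called, with a median of -0.03. Of 15 genes of esterification, transfer and lipoprotein reception 2 fell, the sterol carrier STARD5 (-1.31, limma adjusted p = 0.00272) and LIPA, the lysosomal lipase that frees cholesterol from its esters (-0.47, adjusted p = 0.0361). Of 8 tested genes of sterol efflux and LXR 1 fell, MYLIP, a ubiquitin ligase that is an LXR target (-1.44, limma adjusted p = 0.00107). Of 10 genes of SREBP1 and fatty acid synthesis 4 fell, with a median of -0.54: SCD, the stearoyl-CoA desaturase (-1.31), ACACA (-0.66), FASN (-0.71) and ACLY (-0.39). The counts of these lists stand beside 10.7% of all genes called.

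Other groups of genes moved in the same libraries. Of 20 proliferation genes 11 fell with DHA, among them TOP2A (-1.24) and MKI67 (-0.85), all 20 lay below 0, and the list's median was -0.58. Their summed level was 3273 to 6488 CPM in Veh+Veh and 2091 to 5414 CPM in DHA+Veh, and 3500.1 to 7423 CPM in Veh+BTC and 1839 to 5814 CPM in DHA+BTC. Of 11 tested markers of activated stellate cells 7 fell, among them COL1A2 (-1.51) and ACTA2 (-1.25), and TIMP1 rose (1.04). Their summed level was 2251 to 4432 CPM in Veh+Veh and 2167 to 3797 CPM in DHA+Veh, and 2092 to 4205 CPM in Veh+BTC and 2283 to 3503 CPM in DHA+BTC. Of 5 tested epithelial markers KRT18 fell (-0.97) and CDH1 rose (1.28), with sums of 164 to 787 CPM in Veh+Veh, 122 to 355 CPM in DHA+Veh, 166 to 711 CPM in Veh+BTC and 149 to 317 CPM in DHA+BTC. Of 5 tested leukocyte markers CD14 fell (-1.19), with sums of 12.6 to 53.3 CPM in Veh+Veh, 16.6 to 43.1 CPM in DHA+Veh, 14.0 to 57.5 CPM in Veh+BTC and 10.4 to 61.8 CPM in DHA+BTC. Neither of the 2 tested endothelial markers was called. The part of these changes and of sequencing depth in the result for the cholesterol genes was not tested. The enzymes' medians within each experiment, given above, come from the same DHA libraries and do not separate the enzymes from these changes. Counts without the shallowest libraries are also given above.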

How the data were processed

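RNA of 30 LX2 cultures was sequenced from transcript 3′ ends (Lexogen QuantSeq FWD, per the labels' protocols). The deposited table holds CPM values, made by the authors as reads of a gene per 1000000 counted, for each library. STAR 2.5.3a and HTSeq 0.6.0 are named in the submitters' processing notes, and the genome build, annotation and use of strand are not given in the sources used here. Each column sums to that total, and dividing by the value of 1 read gave whole reads within 0.01 read for 100% of values, so the depth of each library is known. Floors of 3 reads cover counting error only, since PCR copies were not marked. All 30 columns matched a labelled sample, and 61398 of 61597 gene IDs (99.7%) matched a symbol.

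CPM values were analysed as log2(CPM + 1) with limma 3.58.1 in R 4.3.3, over the 15137 genes that reached 1 CPM in 5 or more libraries, with all 6 groups in the fit, the experiment as a block, Benjamini-Hochberg adjustment and a threshold of 0.05. A fold change on this scale understates changes of low genes. The experiment number in the labels pairs libraries: all 75 pairs of same-experiment libraries had correlated deviations from their group means (r from 0.119, median 0.507). Between experiments the median was -0.199. Deviations from a group mean cancel over the experiments, which pulls correlations between experiments to negative values, so -0.199 is no neutral baseline. As alternatives the block, pseudocount, filter, scaling, libraries and groups in the fit were varied, and edgeR 4.0.16 and DESeq2 1.42.0 were run on the recovered reads, where edgeR called 950 genes for DHA against vehicle.

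The members and the other gene lists were chosen with earlier results of these data known. All members are accounted for, with values in every library for those called in a comparison, and of each other pathway list up to 4 genes with the smallest p-values were eligible to be named. Promoters came from RefSeq (GRCh38.p14) and 3′ overlaps from GENCODE 29.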

Additional observations from a re-analysis of the deposited data

Results flagged for a closer look

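Within each group of 5 libraries, the highest and lowest value of each tested member was compared with its nearest neighbour. Gap and range were taken on the log2(CPM + 1) scale, and the values below are in CPM. In 5 of 174 such groups the gap took more than 0.71 of the group's range, where chance gives about 1 in 20. MVD in OLA+BTC 3 stood highest with 193 CPM, next to 94.96 CPM. FDPS in Veh+Veh 5 was lowest with 310.3 CPM, next to 481 CPM. LSS in DHA+Veh 3 was lowest with 34.2 CPM, next to 52.6 CPM. DHA+BTC 5, the library with the fewest reads, was lowest for TM7SF2 with 1.61 CPM, next to 10.2 CPM, and for SREBF2 with 53.8 CPM, next to 228 CPM.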

How the results depend on the processing

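For DHA against vehicle the count of 15 members ranged from 12 to 17 when 1 experiment or library was left out, and ACAT2 and MVK stayed called under all 37 alternatives. That count became 11 with libraries averaged over BTC. Without the experiment block 2 members were called against vehicle, 1 against oleic acid, and 0 in each of the split comparisons. Against oleic acid the count of 14 became 9 with median-of-ratios factors, 5 with libraries averaged over BTC, 7 without the 3 shallowest libraries and 8 with edgeR, and 6 to 14 with 1 experiment or library left out. Without BTC the count of 5 became 2 without a filter, 3 with median-of-ratios factors, 3 without the shallowest libraries and 2 with edgeR, and 0 to 5 with leave-outs. With BTC the count of 8 became 5 with median-of-ratios factors, 0 with only the compared groups in the fit, 4 without the shallowest libraries and 3 with edgeR, and 2 to 10 with leave-outs. The causes were not tested. The comparisons of oleic acid, BTC and both interactions called 0 under each alternative run.

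Uncalled differences between DHA and vehicle changed sign for 4 members. GGPS1 became 0.0141 with edgeR and 0.0334 with DESeq2. LBR ranged from -0.514 to 0.0256 in leave-outs, the last without experiment 4. SCAP became -0.0295 without the shallowest libraries and ranged from -0.0232 (without experiment 5) to 0.142 in leave-outs. MBTPS2 became 0.0178 with median-of-ratios factors, 0.0699 with quantile normalization, 0.0527 with edgeR, 0.0569 with DESeq2 and 0.122 without the shallowest libraries, and ranged from -0.262 to 0.0675 in leave-outs. The causes were not tested.

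MSMO1 missed the threshold with libraries averaged over BTC (adjusted p = 0.054) and with edgeR (0.0591), as did TM7SF2 (0.0631 and 0.0507). Low members such as INSIG2, HSD17B7 and CYP51A1 rest on few reads in the shallow libraries.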
